A study of Homo sapiens with 4 samples.

Results

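The Notch receptors, their ligands and their targets were examined in HER2-positive breast cancer cells that had become resistant to lapatinib, a small molecule that blocks the kinase activity of HER2 and EGFR. The set held 10 genes, namely the receptor genes NOTCH1, NOTCH2, NOTCH3 and NOTCH4, the ligand genes JAG1, JAG2, DLL1 and DLL4, and the target genes HES1 and HEY1. They were found through the RefSeq accession of each probe, which gave 13 probes of 41000 on the array and 10 genes of the 16419 that could be named in this way. Total RNA from parental SkBr3 and parental BT474 cells, which received vehicle, and from 1 lapatinib-resistant clone of each line was hybridized to 1 Agilent whole-genome array per sample, 4 arrays in all. The clones, called SkBr3/Lap and BT474/Lap here, had been selected with rising doses of lapatinib, up to 1 μM. The sample labels number the SkBr3 clone 3 and the BT474 clone 6. Other descriptions of the samples have these numbers the other way round, so no clone number is used here. Each resistant state is thus represented by a single clone, and no value below has a check by replicate cultures.

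Notch signaling works between neighboring cells. A ligand of the Jagged or Delta type on one cell binds a Notch receptor on the next, which is then cut by an ADAM protease and by γ-secretase. The freed intracellular domain enters the nucleus, joins the DNA-binding protein RBPJ and a Mastermind coactivator, and switches on targets such as the HES and HEY repressors. In the mammary gland the pathway is known for guiding luminal cell fate, and in breast cancer high JAG1 and NOTCH1 have been linked to poor outcome.

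The deposited value of a spot is its processed signal, which is an intensity corrected for background. The 75th percentile of the probe signals lay between 1115 and 2074 on the 4 arrays, between 66.6% and 74.0% of probes were marked well above background, and no spot was saturated. Levels below are given as processed signals, whereas each fold change compares log2 signals after the 75th percentile of the array was subtracted, so that a gene whose signal doubled on a brighter array did not necessarily change. The array of SkBr3/Lap did not share its slide, whereas the other 3 arrays lay on 1 slide, so the slide and resistance cannot be told apart in the SkBr3 comparison, while the BT474 comparison lay within 1 slide. Of the 7 luminal and HER2-amplicon markers examined, 6 were well above background on all 4 arrays, and CDH1, the E-cadherin gene, which SkBr3 cells are known to lack, was not so on either SkBr3 array. In SkBr3/Lap, 2 of the 7 were at least 2-fold lower after scaling, ERBB2 (3.74-fold), the HER2 gene, and GRB7 (2.29-fold). In BT474/Lap 0 were called. All log2 fold changes measured for this list, 6 in SkBr3/Lap and 7 in BT474/Lap, were below 0. Their median was -0.63 in each clone, beside -0.10 over all measured genes. The leukocyte gene PTPRC and the fibroblast genes COL1A2, LUM and DCN did not stand well above background on any array. Of the 5 fibroblast markers with a probe, 2 (COL3A1 and PDGFRB) did so in SkBr3/Lap and 0 elsewhere, with summed signals of 23.0 in SkBr3, 431 in SkBr3/Lap and 20.5 to 21.8 in the BT474 pair. The summed signal of the 5 leukocyte markers was 554 and 499 in the SkBr3 pair and 203 and 229 in the BT474 pair. All 6 basal or myoepithelial markers were at least 2-fold higher in SkBr3/Lap and 2 of the 6 in BT474/Lap, and their summed signal went from 721 to 18977 in the SkBr3 pair and from 1510 to 2747 in the BT474 pair. Of 5 endothelial markers, 2 were at least 2-fold higher in SkBr3/Lap, where their summed signal went from 196 to 1424, and in BT474/Lap 1 was at least 2-fold higher and 1 lower, with sums of 914 and 669. The part of these shifts in the results below was not tested.

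Among the 10 genes, only JAG1 was higher by 2-fold or more in both clones. JAG2 was at least 2-fold lower in SkBr3/Lap, and none of the Notch genes was lower by 2-fold or more in BT474/Lap. Thus 1 of the 10 genes was at least 2-fold higher in SkBr3/Lap, where 10.5% of all named genes were, and 1 of the 10 was at least 2-fold lower, against 11.2%. In BT474/Lap, 1 of the 10 genes was called higher and 0 were called lower, where 7.03% and 4.83% of all named genes were. The shares of the Notch genes were thus close to those of all genes, and the counts say nothing particular about the set. Where a signal was not well above background, the larger of it and the lowest signal so marked on that array was used. The fold change is then a limit. The median log2 fold change was -0.53 over the 7 Notch genes measured on both SkBr3 arrays and -0.29 over the 9 measured on both BT474 arrays, beside -0.10 over all measured genes in each comparison (12019 and 12421 genes). With each array scaled by its median signal, the median fold change of all measured genes became 0.05 in SkBr3/Lap and -0.31 in BT474/Lap, so that fold changes near 0 depend on the scaling. The share of higher genes among all called genes in BT474/Lap moved from 59.3% to 42.7% with it. With the 75th percentile taken only over probes so marked on each of the 4 arrays, the median of all genes in BT474/Lap was 0.01.

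**Figure D1:**
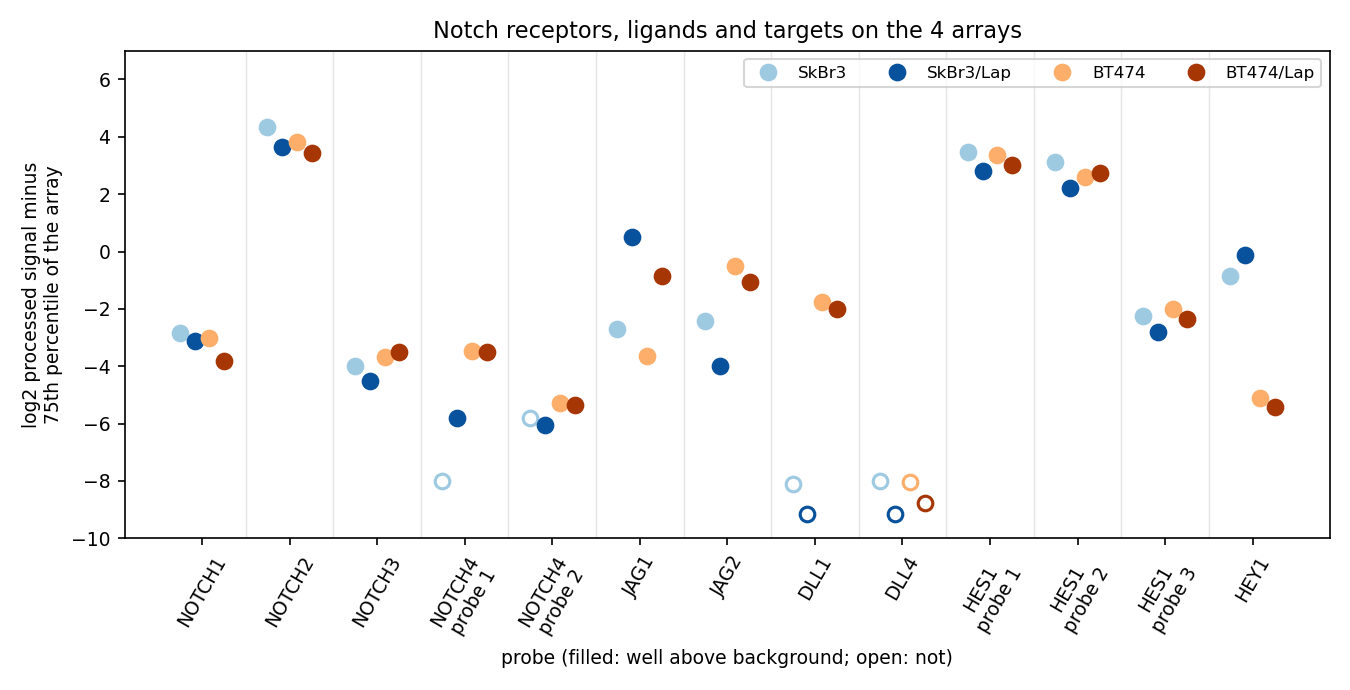
Scaled log2 signal (log2 processed signal minus the 75th percentile of the array) of each of the 13 probes, 1 point per array, filled where the signal was well above background and open where it was not. JAG1 was higher in each clone than in its parental cells, DLL1 was well above background in the BT474 pair alone, and DLL4 on no array. Heights of different probes cannot be compared, since probes differ in how strongly they bind.

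The ligand gene JAG1 encodes Jagged1, a membrane-bound ligand of the Notch receptors. JAG1 was read by 1 probe with 1 spot per array, so its values have no check by another probe or spot. Its signal was 170.3 in SkBr3 against 2954 in SkBr3/Lap, and 91.7 in BT474 against 921 in BT474/Lap, and it was well above background on all 4 arrays. Both clones were thus brighter than either parental line. In RNA from whole cultures, a change in the share of cells that express a gene and a change in its RNA per cell cannot be told apart. After scaling, JAG1 rose 9.32-fold from SkBr3 to SkBr3/Lap (log2 fold change 3.22) and 6.92-fold from BT474 to BT474/Lap (2.79). Across all named genes, 1.86% were higher by 2-fold or more in both clones. When the 11488 genes well above background on all 4 arrays were ordered by the smaller of their changes in the clones, JAG1 was number 13. It was number 192 of 12019 measured genes in SkBr3/Lap and number 135 of 12421 in BT474/Lap. The rise in BT474/Lap was measured within 1 slide.

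**Figure D2:**
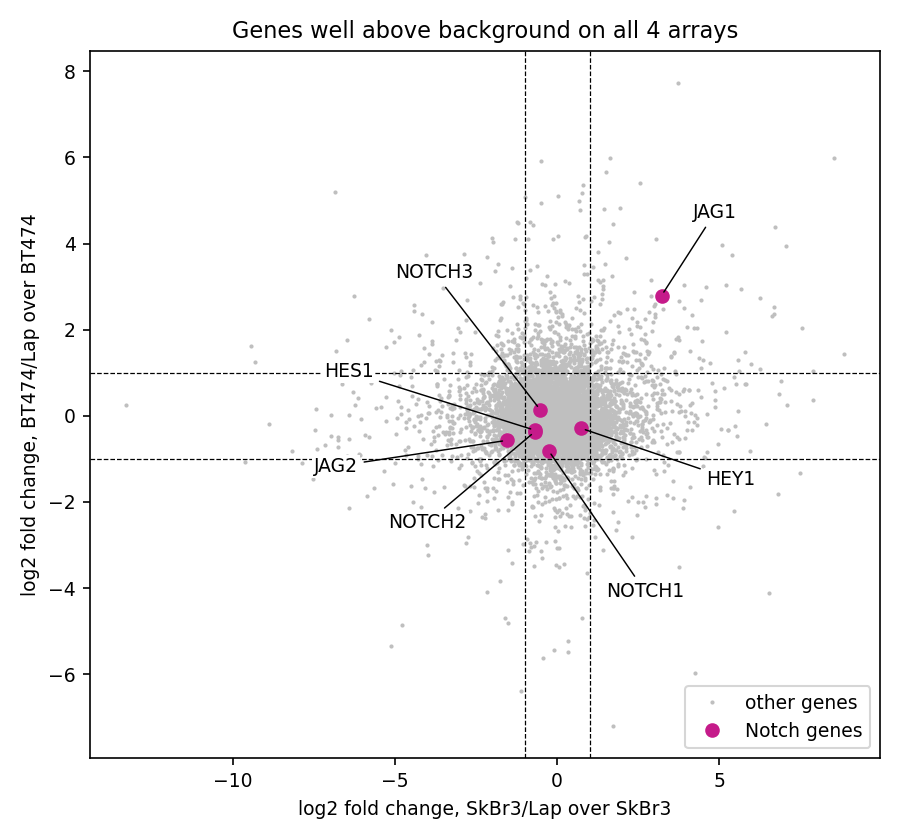
Log2 fold change of each gene in SkBr3/Lap (x axis) and in BT474/Lap (y axis), each against its own parental line, for the 11488 genes well above background on all 4 arrays. Grey points are single genes, magenta points are the 7 Notch genes among them, and dashed lines mark 2-fold. JAG1 lies at 3.22 and 2.79, apart from the other 6 Notch genes, of which JAG2 alone lies past a 2-fold line.

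Since JAG1 was the gene that rose in both clones, the 250 bases before its start are shown. They lie on the minus strand at chr20:10674000-10674249 of GRCh38.p14 and were taken from RefSeq, which gave this window for 8 of the 10 genes. DLL1 and HEY1 are the others.
JAG1: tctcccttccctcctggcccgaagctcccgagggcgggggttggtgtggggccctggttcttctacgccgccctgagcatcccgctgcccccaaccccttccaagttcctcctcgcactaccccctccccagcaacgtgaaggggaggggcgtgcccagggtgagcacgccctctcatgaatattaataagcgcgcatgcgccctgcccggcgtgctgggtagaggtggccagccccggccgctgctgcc
Both strands were searched for the RBPJ core motif TGGGAA and for the consensus of NF-κB, the transcription factor that the study followed, and this window held 0 matches to either. The window has a G and C content of 68.4%. Of 35116 RefSeq windows of the same length, 20.8% held TGGGAA and 5.21% the NF-κB consensus. The absence of a match says only that these letters do not occur in the 250 bases.

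JAG2 encodes the other Jagged ligand. Its signal was 208.5 in SkBr3 against 131.7 in SkBr3/Lap, and 818 in BT474 against 799 in BT474/Lap, all well above background. The scaled level was 2.94-fold lower in SkBr3/Lap than in SkBr3 (log2 fold change -1.56) and 1.49-fold lower in BT474/Lap than in BT474 (-0.57). JAG1 and JAG2 therefore had opposite signs in both clones. The SkBr3/Lap value depended on the background correction, since normexp correction followed by quantile normalization gave a log2 fold change of -0.75, which is under 2-fold.

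DLL1, the gene of the ligand Delta-like 1, was detected in the BT474 pair alone. It had signals of 4.02 in SkBr3 and 3.68 in SkBr3/Lap, neither well above background, against 339 in BT474 and 420 in BT474/Lap. It was at least 20.4-fold lower in SkBr3 than in BT474. Between the BT474 arrays its log2 fold change was -0.23. DLL4, the gene of Delta-like 4, which is best known from endothelial cells, had signals of 3.63 to 4.43 and none of them was well above background, so no fold change is given.

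Among the receptors, no probe passed 2-fold in either clone. NOTCH1 was the gene with the best measured level, because its probe was spotted 10 times on each array. The mean signal of the 10 spots was 155.4 in SkBr3 (143.2 to 172.4) and 241.1 in SkBr3/Lap (227.7 to 266.2). It was 144.7 in BT474 (136.9 to 160.1) and 119.9 in BT474/Lap (107.9 to 129.0). The raw signal was therefore higher in SkBr3/Lap, but the 75th percentile of that array was higher by a larger factor. After scaling, the log2 fold change was -0.26 in SkBr3/Lap and -0.81 in BT474/Lap (1.75-fold lower). The SD among the 10 spots was 0.07 to 0.09 on the log2 scale, and the scaled spots of BT474/Lap (-3.96 to -3.70) did not overlap those of BT474 (-3.08 to -2.86). In the SkBr3 pair the ranges met at -2.96, with spots from -3.19 in SkBr3/Lap and up to -2.69 in SkBr3. These spreads cover the spots of one hybridization and not the difference between cultures. With median scaling or quantile normalization the change in BT474/Lap passed 2-fold, with log2 fold changes of -1.02 and -1.07.

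**Figure D3:**
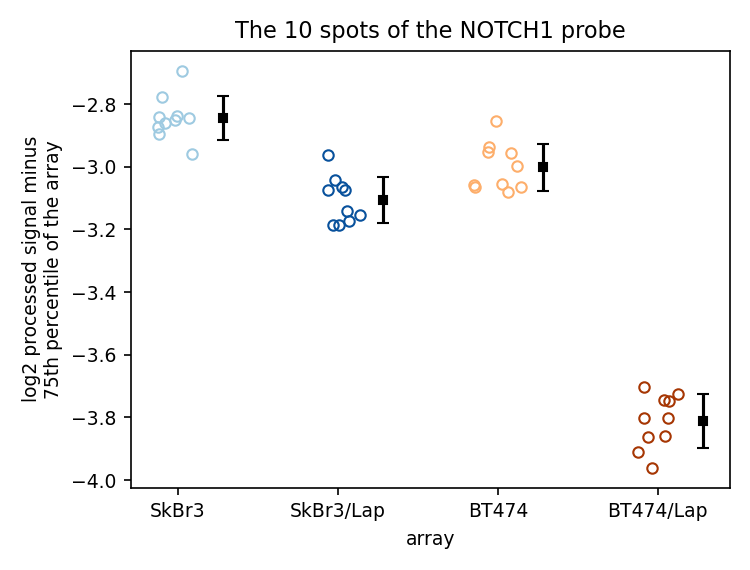
Scaled log2 signal of the 10 spots of the NOTCH1 probe on each array, with the mean and SD of the spots in black. The spots of BT474/Lap lie between -3.96 and -3.70, below all spots of the other 3 arrays. The y axis does not start at 0.

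NOTCH2 had signals of 22483 in SkBr3 against 25854 in SkBr3/Lap, and 16236 in BT474 against 18196 in BT474/Lap. Its log2 fold changes were -0.69 and -0.37 in SkBr3/Lap and BT474/Lap. The genome holds near-identical partial copies of this gene, the NOTCH2NL genes, so the probe may also have bound their transcripts. NOTCH3 was dimmer, with signals of 69.6 and 89.98 in the SkBr3 pair and 91.3 and 146.4 in the BT474 pair. Its log2 fold changes were -0.53 and 0.14, and the sign in BT474/Lap turned under median scaling (-0.06) and quantile normalization (-0.09).

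NOTCH4 had 2 probes, both dim. The brighter had signals of 4.36 in SkBr3 against 37.4 in SkBr3/Lap, and 103.3 in BT474 against 146.6 in BT474/Lap, and was not well above background in SkBr3. In SkBr3/Lap it was at least 1.25-fold higher than in SkBr3. Taken at face value the SkBr3 signal would give a log2 fold change of 2.20, but the other probe, with signals of 20.0 (not well above background) and 31.2 in this pair, gave no limit above the level of SkBr3. In the BT474 pair the log2 fold changes of the probes were -0.03 and -0.04. Like DLL1, NOTCH4 was lower in SkBr3 than in BT474, by at least 6.21-fold at the brighter probe and at least 1.41-fold at the other.

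HES1 encodes a repressor of transcription that is among the most direct targets of Notch. All 4 arrays detected its 3 probes well above background. The brightest had signals of 12495 in SkBr3 against 14373 in SkBr3/Lap, and 11813 in BT474 against 13606 in BT474/Lap, a range of 0.69 on the scaled log2 scale. Its log2 fold changes were -0.69 in SkBr3/Lap and -0.33 in BT474/Lap. One other probe gave -0.92 and 0.11 in these clones, and the dimmest gave -0.56 and -0.35. No HES1 probe was at least 2-fold different in either clone, although JAG1 was higher in both.

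The 250 bases before the start of HES1 are shown because its promoter is the textbook example of a Notch-responsive one. They lie on the plus strand at chr3:194135898-194136147 of GRCh38.p14, from RefSeq, and capitals mark the RBPJ core motif.
HES1: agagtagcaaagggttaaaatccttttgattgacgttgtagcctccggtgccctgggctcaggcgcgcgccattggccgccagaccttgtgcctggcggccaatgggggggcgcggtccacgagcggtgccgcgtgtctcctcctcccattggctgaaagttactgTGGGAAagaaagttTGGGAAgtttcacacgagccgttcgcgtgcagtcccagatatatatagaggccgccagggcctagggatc
The motif TGGGAA occurred 2 times, both on the strand of the gene, at 84 to 79 and 70 to 65 bases before the start. Of the 35116 windows, 2.9% held 2 or more. The N-box CACNAG, which HES proteins bind, occurred 3 times in the window. It occurred at least 1 time in 32.0% of all windows and 2 or more times in 6.32%. None of the other 7 windows, those of NOTCH1, NOTCH2, NOTCH3, NOTCH4, JAG1, JAG2 and DLL4, held TGGGAA. These are matches of letters, and binding was not measured.

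HEY1, the gene of the other repressor examined, differed mainly between the cell lines. Its signal was 617 in SkBr3 against 1928 in SkBr3/Lap, and 33.2 in BT474 against 39.4 in BT474/Lap. Both SkBr3 arrays were brighter than both BT474 arrays, and HEY1 was 19.3-fold higher in SkBr3 than in BT474, where 14.8% of all named genes were at least 2-fold higher and 15.2% lower. The log2 fold change was 0.75 in SkBr3/Lap (1.68-fold higher) and -0.29 in BT474/Lap, neither of them 2-fold. HEY1 had the largest range of the Notch genes well above background on all arrays, 5.31 on the log2 scale. By Euclidean distance between mean-centered log2 levels over the 4 arrays, the 5 genes most like it among 11488 were SKIDA1 (0.28), COL5A1 (0.29), CORO1A (0.42), NFE2L3 (0.49) and RAB27A (0.55). For JAG1, which was singled out after its values were seen, they were CRIM1 (0.39), LAMB3 (0.70), PCSK5 (0.73), SAMD5 (0.77) and ACOT11 (0.85). With 4 arrays, such distances describe these samples only.

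Only a comparison that takes the cell lines as replicates of resistance has a test. In limma with the cell line as a block and 1 residual degree of freedom, JAG1 had a mean log2 fold change of 3.01 ± 0.43 (SE), an unadjusted p of 0.00363 and a Benjamini-Hochberg adjusted p of 1.00 over 25927 probes. Of the 11 Notch probes that reached a signal of 100 on at least 1 array, 0 passed an adjusted p of 0.05 and 1, that of JAG1, had an unadjusted p below 0.05, where 3.47% of all probes did. At the adjusted threshold 0 of the 25927 probes passed. The brighter NOTCH4 probe and the DLL1 probe reached this signal through the BT474 arrays alone, and the NOTCH3 probe through BT474/Lap alone. The HEY1 probe reached it through the SkBr3 arrays alone, and DLL4 and the dimmer NOTCH4 probe did not reach it. Over the 8 other ways of fitting, the adjusted p of JAG1 was 0.646 to 1.00. With the slide as the block in place of the cell line, the log2 fold change of JAG1 was 2.32. SkBr3/Lap, alone on its slide, adds nothing to that contrast, which sets BT474/Lap against both parental lines. That fit therefore cannot show what adjusting for the slide does to the change in SkBr3/Lap.

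Beyond these genes, 60 other genes of the pathway were listed by role, and 56 had a named probe. In SkBr3/Lap 6 of the 56 were at least 2-fold higher, 9 were at least 2-fold lower, 37 lay between and 4 gave no value, being near background. Of all named genes, 10.5% were called higher and 11.2% lower in this clone. In BT474/Lap the numbers were 7, 2, 42 and 5, where 7.03% and 4.83% of all named genes were called higher and lower. These shares over all genes are the background of each list count below, and no difference between lists or between the clones was tested. Their median log2 fold changes, -0.03 over 48 measured genes and -0.06 over 45, were near the -0.10 of all genes. None of the 56 was called at least 2-fold in the same direction in both clones at its probe with the highest mean. At its other probe, NEURL1 was at least 409-fold higher in SkBr3/Lap and at least 8.99-fold higher in BT474/Lap. With median scaling, FURIN was higher by 2-fold or more in both clones (log2 fold change 1.02 and a limit of 1.22). SOX9 was then lower by 2-fold or more in both (-2.93 and -1.16), as with quantile normalization (-2.88 and -1.08).

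Of 9 genes for ADAM proteases, furin and γ-secretase subunits, 0 were called higher and 2 lower in SkBr3/Lap, and 2 higher and 0 lower in BT474/Lap. Those lower in SkBr3/Lap were APH1B (log2 fold change -1.20) and APH1A (-1.02), both γ-secretase subunits. APH1A was in contrast higher in BT474/Lap (1.33), with signals of 1577 and 1444 in the SkBr3 pair and 357 and 1303 in the BT474 pair. Its other probe gave -0.91 and 1.22, so that the fall in SkBr3/Lap stood close to 2-fold, and it was under 2-fold with median scaling (-0.86). The fall of APH1B was under 2-fold with normexp correction (-0.81). FURIN, the protease that matures the receptor, was at least 2.68-fold higher in BT474/Lap and had a log2 fold change of 0.86 in SkBr3/Lap. With normexp correction its limit in BT474/Lap was 0.44 on the log2 scale. None of the 5 genes for glycosylation of the receptor, the Fringe genes among them, was called in either clone, with log2 fold changes of -0.98 to 0.10 in SkBr3/Lap and -0.31 to 0.41 in BT474/Lap.

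Of 11 genes for endocytosis and turnover with a probe, 3 were called higher and 2 lower in SkBr3/Lap, and 0 in either direction in BT474/Lap. The larger fall was that of DTX3, with signals of 1538 and 614 in the SkBr3 pair (log2 fold change -2.22). NUMB, an adaptor that inhibits Notch, was the other lower one, with signals of 1731 and 1414 in the SkBr3 pair (log2 fold change -1.19). DTX2 was among the higher ones, at 3.86-fold. NEURL1, a ubiquitin ligase that acts on Notch ligands, had a signal of 17.5 in SkBr3, not well above background, and 2657 in SkBr3/Lap, a rise of at least 81.7-fold. In the BT474 pair its signals were 56.1 and 145.2, a log2 fold change of 0.83. Its other probe had signals of 3.199 and 12168 in the SkBr3 pair and 3.24 and 208.4 in the BT474 pair, rises of at least 409-fold and at least 8.99-fold, so that in BT474/Lap the probes disagreed on a 2-fold change. DTX3L, a ubiquitin ligase of the Deltex family, was 6.28-fold higher in SkBr3/Lap (4.26-fold at its other probe) and had a log2 fold change of -0.37 in BT474/Lap.

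**Figure D4:**
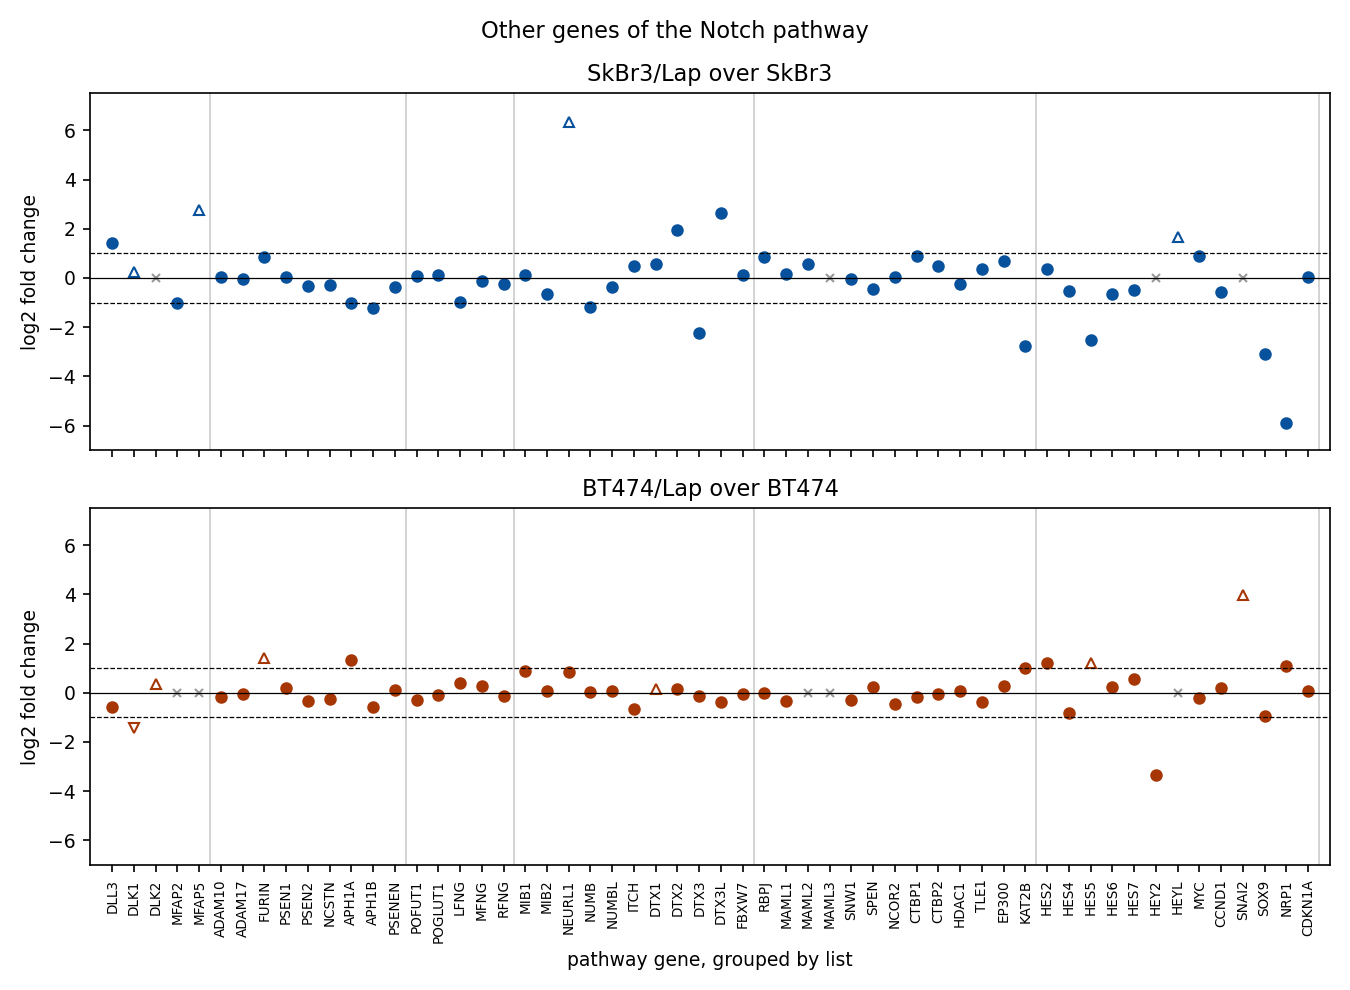
Log2 fold change of the 56 other pathway genes in SkBr3/Lap (top) and BT474/Lap (bottom), in the order ligands, cleavage, glycosylation, endocytosis and turnover, nuclear complex, and targets with the HES and HEY family, separated by grey lines. Circles are measured values, open triangles are limits, crosses at 0 mark genes without a value, and dashed lines mark 2-fold. The spread is wider in SkBr3/Lap, from -5.90 to a limit of 6.35, than in BT474/Lap, from -3.35 to a limit of 3.98.

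Of the 13 genes of the nuclear complex, KAT2B alone was called in either clone. The median log2 fold change of the list was 0.25 in SkBr3/Lap and -0.06 in BT474/Lap. KAT2B, a histone acetyltransferase, had signals of 328 in SkBr3 against 88.8 in SkBr3/Lap, and 25.0 in BT474 against 73.0 in BT474/Lap, with log2 fold changes of -2.78 and 1.01. The BT474/Lap value was only just at 2-fold and fell under it with median scaling (0.80), quantile normalization (0.81), an added 16 (0.59), normexp correction (0.32) and the mean over its probes (0.87). RBPJ itself had log2 fold changes of 0.86 and 0.00, and its other probe gave 1.01 and -0.32. Of the 5 other ligand genes, 2 were called higher and 1 lower in SkBr3/Lap, and 0 higher and 1 lower in BT474/Lap. The one lower in SkBr3/Lap was MFAP2, a microfibril protein, at a log2 fold change of -1.03 that was under 2-fold with median scaling (-0.87). DLL3, a Delta ligand that does not activate Notch on neighboring cells, rose from 271.8 to 1338 there (log2 fold change 1.40) and had a log2 fold change of -0.57 in BT474/Lap, and its dimmer probe gave 0.07 in SkBr3/Lap. MFAP5, a relative of MFAP2, was at least 6.78-fold higher in SkBr3/Lap. DLK1, an atypical ligand, was lower by at least 2.72-fold in BT474/Lap, but at a log2 limit of -0.47 in the alternative nearest to 0.

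Of 13 genes of the other targets and of the HES and HEY family with a probe, 1 was called higher and 3 lower in SkBr3/Lap, and 4 higher and 1 lower in BT474/Lap. HEYL, of the HEY family, was the 1 called higher in SkBr3/Lap. It went from 17.9 in SkBr3, not well above background, to 106 in SkBr3/Lap, at least 3.19-fold higher. HES2 was 2.32-fold higher in BT474/Lap. HES5, a relative of HES1 and itself a Notch target, had signals of 235.5 and 76.6 in the SkBr3 pair, 5.72-fold lower in the clone. In the BT474 pair it went from 16.5, not well above background, to 55.9, at least 2.34-fold higher, a limit that fell to 0.37 on the log2 scale with normexp correction. NRP1, a coreceptor of VEGF and semaphorins, was 59.5-fold lower in SkBr3/Lap but 2.11-fold higher in BT474/Lap, with signals of 3718 and 116.2 in the SkBr3 pair and 337 and 1033 in the BT474 pair. The BT474/Lap value was under 2-fold with median scaling (0.87 on the log2 scale). Its 2 other probes had the same signs in both clones, at least 70.4-fold and 3.34-fold lower in SkBr3/Lap. In BT474/Lap they were 4.75-fold and 2.76-fold higher. SOX9, a transcription factor, was 8.51-fold lower in SkBr3/Lap and had a log2 fold change of -0.95 in BT474/Lap. HEY2, a relative of HEY1, was not well above background in the SkBr3 pair and went from 499 in BT474 to 71.0 in BT474/Lap, 10.2-fold lower, with a limit of at least 12.0-fold at its other probe. SNAI2, the gene of the transcription factor Slug, went from 12.1 in BT474, not well above background, to 366 in BT474/Lap, at least 15.8-fold higher, and had no value in the SkBr3 pair.

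**Figure D5:**
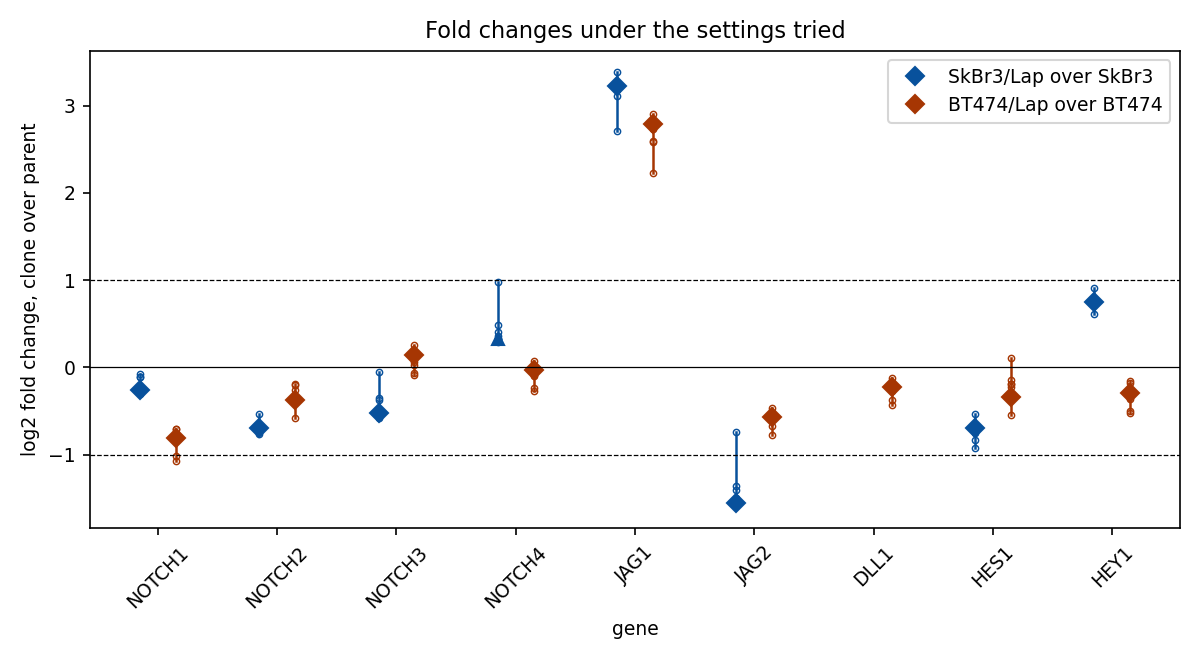
Log2 fold change of the 9 Notch genes with a value, in SkBr3/Lap (blue) and BT474/Lap (brown), each against its own parental line. Diamonds are the values of the text, the triangle of NOTCH4 in SkBr3/Lap is a limit, open circles are values from the other ways of computing them, vertical lines span them and dashed lines mark 2-fold. JAG1 stays above 2-fold throughout, with values of 2.71 to 3.38 in SkBr3/Lap and of 2.22 to 2.90 in the BT474 clone.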

How the data were processed

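RNA of 4 samples, 1 per group, was labeled with Cy3 and read on 1-color Agilent arrays. Per the file headers, the deposited spot values came from Feature Extraction 10.1.1.1, and the processed signal is an intensity that had been corrected for background but not scaled between arrays. The methods name an earlier version of the program, Cy3 or Cy5, and LOWESS. The authors also deposited a table of log2 values, centered per probe, whose scaling is not stated in the file. Its column medians were 0.12, -0.20, 0.11 and -0.05 in SkBr3, SkBr3/Lap, BT474 and BT474/Lap, and its differences between arrays followed those of the processed signals with a largest deviation of 0.62.

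Repeated spots were averaged on the log2 scale and the 75th percentile over the 41000 probes of each array was subtracted. A probe counted as well above background if the flag was set on 50% of its spots or more. Probes were named through RefSeq accessions of GRCh38.p14 (23675 probes). A gene was represented by its probe with the highest mean, with no filter on low values. A change was called at 2-fold, measured or, where 1 signal was not well above background, by its limit. A limit is a fold over the larger of that signal and the lowest signal marked well above background on its array. The limma 3.58.1 test (R 4.3.3) used probes with a signal of at least 100 on 1 or more arrays. Other steps used Python 3.11.15, numpy 2.4.6 and pandas 2.3.3, and the scripts were tested on simulated data.

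The members and lists were chosen with earlier results of these data known. The genes named are the 10 members, pathway genes called in the same direction in both clones, and the 2 with the largest called change in each list and clone. RBPJ, HES5, NUMB, MFAP2, HEYL, HES2, DTX2 and DTX3, outside this rule, were added after their values were seen, as were the genes most like JAG1. The alternatives were other scalings, background corrections, probes and thresholds. The number of arrays limits the precision.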

Additional observations from a re-analysis of the deposited data

Results flagged for a closer look

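Among the other pathway genes, 8 were called in at least 1 clone and had the opposite sign in the other. Given for SkBr3/Lap first and BT474/Lap after it, the log2 fold changes were -1.02 and 1.33 for APH1A, -2.78 and 1.01 for KAT2B, -5.90 and 1.08 for NRP1, and -2.52 and a limit of 1.23 for HES5, which were all called in both clones. Under median scaling the SkBr3/Lap value of APH1A (-0.86) and the BT474/Lap values of KAT2B (0.80) and NRP1 (0.87) were under 2-fold, and with normexp correction the BT474/Lap limit of HES5 was 0.37. The other NRP1 probes had larger log2 fold changes in BT474/Lap, 2.25 and 1.47 with the main scaling. The values were 1.40 and -0.57 for DLL3, 2.65 and -0.37 for DTX3L, and 0.26 and -1.44 for DLK1, for which both are limits. For NUMB they were -1.19 and 0.025, and the latter turned to -0.18 under median scaling. With 1 array per group the difference between the clones was not tested. The DLK1 signals, 7.70 and 35.5 in the SkBr3 pair and 27.5 and 14.4 in the BT474 pair, were all near background. None of the 10 Notch genes met this criterion.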

How the results depend on the processing

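Under all 13 alternatives run for the calls, JAG1 was called higher in SkBr3/Lap and in BT474/Lap. Several of these could not change its call. JAG1 has 1 probe, well above background on all 4 arrays, so the choice of probe and the handling of low signals left its values unchanged. A 1.5-fold threshold cannot undo a 2-fold call, and the deposited table nearly repeated the main values (3.22 and 2.79). Of the 10 Notch genes, the number called in SkBr3/Lap was 2 (JAG1 and JAG2) and fell to 1, JAG1, under normexp correction with quantile normalization and at a 3-fold threshold. It rose to 5 at a 1.5-fold threshold, which added HEY1, NOTCH2 and HES1, and to 5 when signals near background were taken at face value, which added NOTCH4, DLL1 and DLL4. In BT474/Lap it was 1 and became 2, with NOTCH1 lower, under median scaling, quantile normalization and a 1.5-fold threshold. No called value of a named gene changed its sign, in a check that left out HEYL, HES2, DTX2 and DTX3. Under these settings 0 Notch probes passed an adjusted p of 0.05 in limma, in each of its 8 alternatives. The labels give all 4 arrays the same replicate number, so that number could not define pairs. The pairing of each clone with its own parental line is the cell-line block of the limma test. Without that block JAG1 had an unadjusted p of 0.0182 in limma and an adjusted p of 1.00. Leaving out an array ends the comparison of its clone and leaves limma with the block no residual degree of freedom. Signals near background limit NOTCH4, DLL1 and DLL4.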
